A study of Mus musculus with 6 samples.

Results

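Wnt ligands and the receptors that bind them were compared between the lower molar tooth germ and oral tissue without teeth in mouse embryos. The genes were taken by symbol: every Wnt ligand, every frizzled receptor, the co-receptors Lrp5 and Lrp6, and the kinase-type receptors Ror1, Ror2, Ryk and Ptk7. All 35 genes found this way had a probe with 1 gene symbol, out of 19057 genes measured: 19 ligands, 10 frizzleds, 2 LRP co-receptors and 4 kinase-type receptors. The tooth germ group held 3 libraries of lower molar tooth germ. The other group held 3 libraries described as mandibular oral tissue with neither tooth nor bone. Both came from embryos of the outbred stock CD-1 at embryonic day 13.5, and the labels give no mutation or treatment for either. Each library is a pool from several embryos, and same-numbered libraries share a litter, which gives 3 pairs. RNA was read on 6 Illumina bead arrays of 1 colour.

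Wnt proteins are secreted, lipid-modified signals. They bind frizzled receptors at the cell surface, and with Lrp5 or Lrp6 beside the frizzled they stabilise beta-catenin, which then acts with TCF/LEF factors on target genes. Other Wnts, Wnt5a among them, act mostly through Ror and Ryk receptors without beta-catenin. At the bud stage the tooth epithelium is a known source of Wnt10a and Wnt10b, Wnt7b is known from oral epithelium outside the tooth, and Wnt5a from the dental mesenchyme. In humans, mutations of WNT10A and LRP6 cause missing teeth.

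The sample labels contradict each other. Titles and descriptions call one set of 3 libraries tooth germ, and the source name and tissue fields call the other set so. The titles are followed here, and the sign of every difference would turn if the other fields were right. Msx1, a homeobox gene of dental mesenchyme, read 12.67, 12.66 and 12.36 in titled tooth germ, against 10.78, 11.41 and 11.09 in titled oral tissue (signals on the deposited log2 scale). Shh, made by dental epithelium, read 7.62, 7.90 and 8.18 in tooth germ, against 7.30, 7.01 and 7.04 in oral tissue. The muscle regulators Myod1 and Myog had log2 differences, tooth germ minus oral tissue, of -1.47 and -1.54. All 4 passed the test across all genes (limma, adjusted p = 6.3e-05, 0.00218, 1.6e-05 and 1.6e-05). The dental marker lists given further on were not uniform. Several of their genes were not called, and Fgf9 of the dental epithelium list was called lower in tooth germ (-0.24, limma adjusted p = 0.0322). Libraries of 1 tissue correlated at 0.995 to 0.997 over all probes and libraries of different tissues at 0.988 to 0.993 (Pearson), and no library stood apart by these values.

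The upstream sequences of the 3 genes that passed the test, Wnt3a, Wnt10b and Wnt9b, are shown with that of Wnt3, because Wnt9b and Wnt3 are neighbours in the genome and face away from each other. Each is the 250 bases before the RefSeq start in GRCm38.p6, written 5′ to 3′ on the gene's strand, with every match to the GC box GGGCGG or its reverse complement CCGCCC in capitals. The windows lie at chr11:59290752-59291001 (minus strand), chr15:98778151-98778400 (minus strand), chr11:103749822-103750071 (minus strand) and chr11:103773925-103774174 (plus strand), in that order.
Wnt3a: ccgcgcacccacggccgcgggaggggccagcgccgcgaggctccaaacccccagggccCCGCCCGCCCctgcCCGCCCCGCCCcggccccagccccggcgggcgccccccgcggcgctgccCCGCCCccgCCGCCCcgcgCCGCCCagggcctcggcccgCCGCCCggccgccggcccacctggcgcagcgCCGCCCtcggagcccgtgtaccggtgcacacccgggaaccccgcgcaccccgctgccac
Wnt10b: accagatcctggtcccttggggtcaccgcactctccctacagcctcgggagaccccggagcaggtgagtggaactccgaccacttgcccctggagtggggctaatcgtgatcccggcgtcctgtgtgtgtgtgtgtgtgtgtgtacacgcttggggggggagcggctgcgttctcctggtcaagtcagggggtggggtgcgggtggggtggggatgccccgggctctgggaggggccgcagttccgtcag
Wnt9b: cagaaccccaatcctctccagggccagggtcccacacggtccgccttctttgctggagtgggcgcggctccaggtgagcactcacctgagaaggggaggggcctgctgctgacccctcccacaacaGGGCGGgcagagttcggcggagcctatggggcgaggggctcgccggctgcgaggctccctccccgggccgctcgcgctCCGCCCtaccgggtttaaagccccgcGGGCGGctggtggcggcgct
Wnt3: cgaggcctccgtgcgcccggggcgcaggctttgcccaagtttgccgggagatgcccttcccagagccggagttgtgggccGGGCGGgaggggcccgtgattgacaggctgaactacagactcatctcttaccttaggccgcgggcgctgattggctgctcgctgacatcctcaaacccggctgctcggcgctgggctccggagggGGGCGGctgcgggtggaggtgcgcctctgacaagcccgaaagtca
The Wnt3a window is 87.6% G and C with 41 CpG dinucleotides and 9 GC-box matches, some of which overlap. Wnt9b has 3 such matches and 72.0% G and C, Wnt3 has 2 and 68.0%, and Wnt10b has 0 and 66.8%. Over all 32851 windows of this length in the table, the median G and C share was 52.4%, the median number of CpG was 6, and 32.7% held a GC box. Of the 35 genes 25 matched the table, and 21 of these had a GC box. The matched genes are counted once each, with a match in any of their windows, while the shares of all windows are counted per window. The counts are thus in unlike units. The TCF/LEF core was searched as CTTTGAT and as CTTTGAA on both strands. The 4 printed windows held neither string. Among the 25 matched genes CTTTGAT was found for Wnt11 and Wnt5b, and CTTTGAA for 0, against 3.2% and 4.5% of all windows. These letters are a description of the windows and say nothing about binding.

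Among the ligands and receptors, Wnt3a and Wnt10b were higher and Wnt9b was lower in tooth germ, and the other 32 genes did not pass the test. The test was limma over all 19057 genes with Benjamini-Hochberg adjustment, with the call set at an adjusted p under 0.05. The calls came to 3 of 35 genes, or 8.57%, beside 5.81% of all genes. In the higher direction 2 of 35 were called, against 2.39% of all genes, and in the lower direction 1, against 3.42%. All 3 called genes were ligands, and 0 of the 16 receptors and co-receptors were called. The median log2 difference was -0.015 over the 35 genes and 0.0026 over all genes, and the median size of the differences was 0.12 and 0.046. Among members and genes whose means lay above the upper quartile of all signals (7.84), that size was 0.14 and 0.11. The signals of tooth germ and oral tissue did not overlap for 11 of the 35 genes (31.4%), beside 23.1% of all genes: 6 were higher in tooth germ, beside 11.9% of all genes, and 5 lower, beside 11.2%. With litter as a block the calls came to 4 higher (3.86% of all genes) and 2 lower (5.02% of all genes). Above the same quartile, 1 of 18 members was called, against 9.88% of all genes there, and 33.3% of members and 32.2% of all genes did not overlap.

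**Figure D1:**
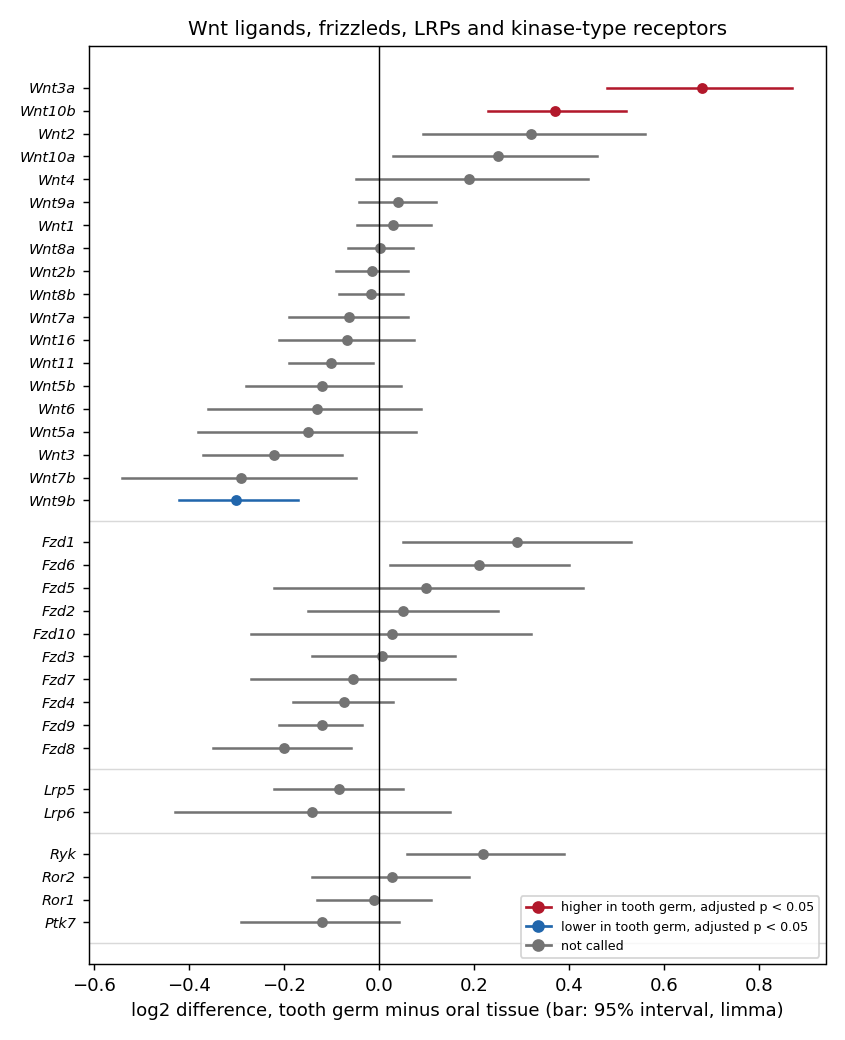
Log2 difference, tooth germ minus oral tissue, of the 35 genes in 4 blocks by role (ligands, frizzleds, LRP co-receptors, kinase-type receptors), with 95% intervals from limma as bars. Wnt3a at 0.68 and Wnt10b at 0.37 stand to the right of 0 in red, Wnt9b at -0.30 stands to the left in blue, and the genes in grey were not called.

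Wnt3a, a ligand of the beta-catenin branch known in the mouse embryo for its role in the tail bud and somites, read 8.69, 8.66 and 8.57 in tooth germ, against 8.10, 8.01 and 7.78 in oral tissue. Every tooth germ library was above every oral tissue library. The log2 difference was 0.68 (SE 0.089, adjusted p = 7.1e-04), or 1.60-fold, and within the litters it was 0.58, 0.66 and 0.79. This was the largest difference of the 35 genes by size, and the call held in all 18 alternatives, with values between 0.59 and 0.75. Wnt3a has 1 probe on the array, so no other probe of the gene bears on this value.

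Wnt10b, a dental epithelium ligand, read 7.73, 7.79 and 7.80 in tooth germ, against 7.35, 7.52 and 7.33 in oral tissue. The groups did not overlap, and the log2 difference was 0.37 (SE 0.067, adjusted p = 0.00542), or 1.29-fold. Within the litters it was 0.38, 0.27 and 0.46. The adjusted p was 0.0641 without both libraries of litter 1 and 0.0747 without those of litter 3. The other Wnt10b probe averaged 6.74 in tooth germ and 6.73 in oral tissue, below the median of all signals (7.01), and differed by 0.015.

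Wnt10a, the close relative of Wnt10b, read 8.66, 8.76 and 8.75 in tooth germ, against 8.63, 8.55 and 8.24 in oral tissue. The lowest tooth germ library was just above the highest oral tissue library. The difference of 0.25 (SE 0.099, 95% interval 0.029 to 0.46) did not pass the test (adjusted p = 0.216, and 0.123 with litter as a block). Within the litters it was 0.028, 0.20 and 0.51, with the largest part in litter 3.

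Wnt9b, which in the mouse acts in kidney tubules and in the fusion of the upper lip, read 6.90, 6.98 and 7.05 in tooth germ, against 7.38, 7.23 and 7.19 in oral tissue. Tooth germ was lower in every litter, by -0.49, -0.26 and -0.14, and the log2 difference was -0.30 (SE 0.057, adjusted p = 0.00866). Its other probe was called too and differed by -0.33 (adjusted p = 0.00808 over all named probes). The tooth germ mean of 6.98 lies near the median of all signals, where differences may be understated. The call was lost without tooth germ library 1 (adjusted p = 0.0520) and without both libraries of litter 1 (adjusted p = 0.0920).

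Wnt3, an early ligand of the embryo that lies next to Wnt9b on chromosome 11, read 7.04, 7.05 and 6.97 in tooth germ, against 7.38, 7.27 and 7.08 in oral tissue. The groups did not overlap, and the difference was -0.22 (SE 0.066). It missed the threshold in the unblocked fit (adjusted p = 0.0823) and passed with litter as a block (adjusted p = 0.0130). The differences within litters were -0.34, -0.22 and -0.11. In both Wnt9b and Wnt3, litter 1 had the largest of the 3 differences and litter 3 the smallest.

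Wnt2, a ligand known from lung development, read 7.94, 8.38 and 7.96 in tooth germ, against 7.76, 7.74 and 7.81 in oral tissue. Library 2 was well above the other tooth germ libraries, and the groups did not overlap. The difference was 0.32 (SE 0.11, adjusted p = 0.116), and with litter as a block it passed (adjusted p = 0.0477). Wnt2 and Wnt3, like Fzd1 and Wnt7b further on, are described because an alternative called them, a choice made after their values were seen.

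Wnt7b, the ligand of oral epithelium outside the tooth, read 8.56, 8.41 and 8.72 in tooth germ, against 9.04, 8.90 and 8.63 in oral tissue. Tooth germ was lower in litters 1 and 2, by -0.48 and -0.49, and higher in litter 3, by 0.089. The difference of -0.29 (SE 0.11, 95% interval -0.54 to -0.048) did not pass the test (adjusted p = 0.189). Without both libraries of litter 3 it was -0.48 and passed (adjusted p = 0.0302). The dimmer Wnt7b probe differed by -0.13.

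Wnt5a, the ligand of dental and facial mesenchyme, read 10.51, 10.56 and 10.19 in tooth germ, against 10.60, 10.64 and 10.46 in oral tissue. The groups overlapped, although tooth germ was lower in each litter, by -0.091, -0.082 and -0.27. The difference was -0.15 (SE 0.10, 95% interval -0.38 to 0.078, adjusted p = 0.529). Both other Wnt5a probes differed by -0.20 and were not called. Its relative Wnt5b averaged 7.81 ± 0.11 in tooth germ and 7.93 ± 0.066 in oral tissue (SD, n = 3 each), a difference of -0.12 that was not called (adjusted p = 0.482).

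**Figure D2:**
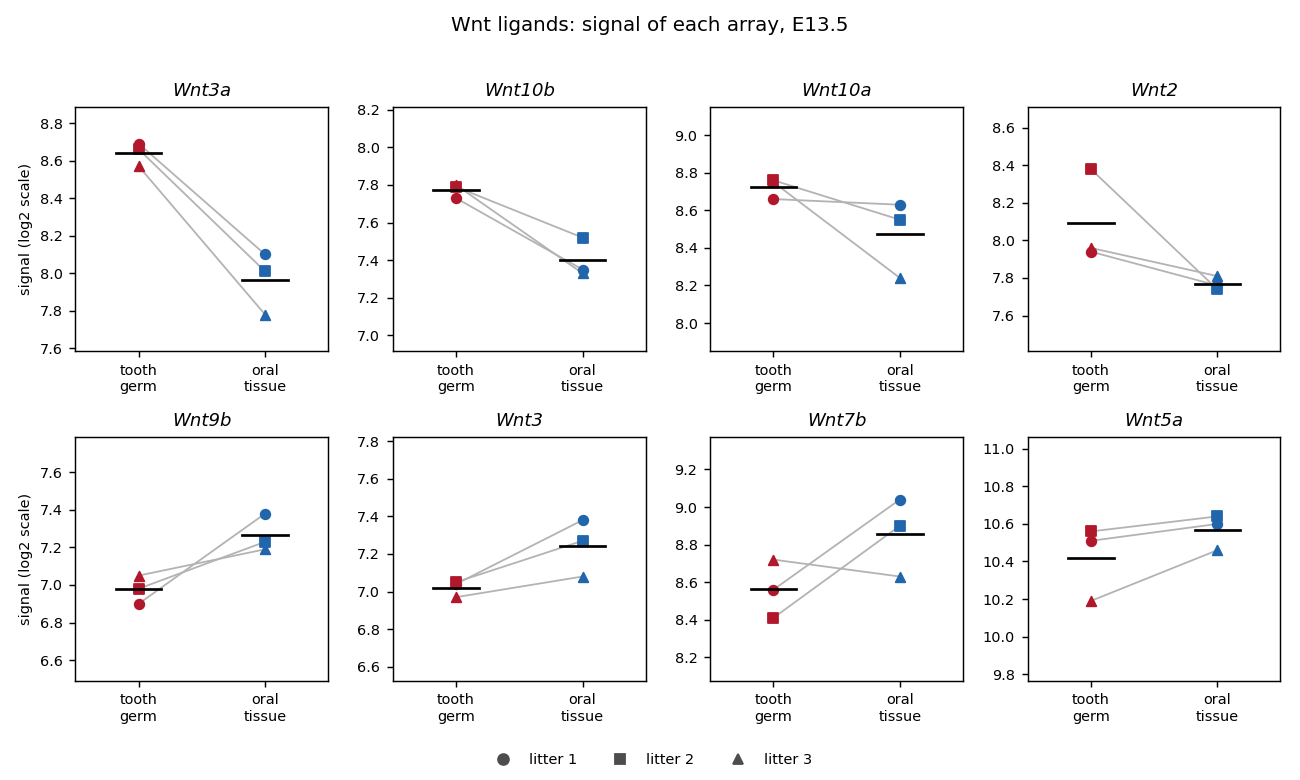
Signal on the deposited log2 scale (vertical axis, each panel spanning the same range of 1.3 units) of 8 Wnt ligands in each array, tooth germ left in red and oral tissue right in blue. Symbols mark the litter, grey lines join libraries of 1 litter and black bars are means of 3. The tooth germ point lies above the oral tissue point of its litter in every litter for Wnt3a, Wnt10b, Wnt10a and Wnt2. It lies below in every litter for Wnt9b, Wnt3 and Wnt5a, while in Wnt7b litter 3 runs against the other litters. The 3 litters shared a sign in 18 of the 35 genes, beside 7880 of all 19057 genes.

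Wnt4 and Wnt6 were the remaining ligands among the 10 members with the brightest probes. Wnt4, known for its role in kidney and female gonad, read 8.77, 8.76 and 9.10 in tooth germ, against 8.62, 8.87 and 8.55 in oral tissue, with a difference of 0.19 (SE 0.11, adjusted p = 0.425). Wnt6, a ligand of surface ectoderm, read 8.67, 8.55 and 8.80 in tooth germ, against 9.02, 8.70 and 8.72 in oral tissue, with a difference of -0.13 (SE 0.10, adjusted p = 0.569). Both overlapped between the tissues, and the litters did not all point the same way.

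The other 8 ligands had means between 6.85 and 7.37 and differences between -0.10 and 0.040, and 0 of them were called by limma. Of these 8, only Wnt11, a ligand of the planar cell polarity branch, had an unadjusted p under 0.05 (difference -0.10, limma adjusted p = 0.211). The means of Wnt1, Wnt2b, Wnt8a, Wnt8b and Wnt11 lay under the median of all signals. Wnt7a, Wnt9a and Wnt16 differed by -0.062, 0.040 and -0.068. Without detection p-values, the dim readings do not show whether these genes were expressed.

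The Wnt genes lie in part as neighbours, and 4 pairs of the 35 genes have no other protein-coding gene between them in RefSeq (GRCm38.p6). On chromosome 11, Wnt9b and Wnt3 differed by -0.30 and -0.22. On the same chromosome Wnt3a differed by 0.68 and its neighbour Wnt9a by 0.040 (95% interval -0.042 to 0.12). On chromosome 15, Wnt10b differed by 0.37 and its neighbour Wnt1 by 0.030. On chromosome 1, Wnt10a differed by 0.25 and Wnt6 by -0.13. Only Wnt10a and Wnt6 had opposite signs. Wnt1 averaged 6.85 and Wnt9a 7.04, below or near the median of all signals (7.01), where differences may be understated. These values are a description with no test of the pairs.

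Frizzled receptors bind the Wnt through an extracellular cysteine-rich domain, and 0 of the 10 were called by limma, while 4 had an unadjusted p under 0.05, beside 17.1% of all genes. Their differences ran from -0.20 to 0.29, with a median of 0.017. With litter as a block 1 of the 10 was called, beside 8.88% of all genes. This was Fzd1, which read 7.99, 7.94 and 7.54 in tooth germ, against 7.66, 7.46 and 7.48 in oral tissue. Tooth germ library 3 was much lower than the other 2 and overlapped oral tissue. The difference was 0.29 (SE 0.11, adjusted p = 0.181, and 0.0384 with the block), and without tooth germ library 3 it was 0.43 (adjusted p = 0.0126).

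Fzd2 and Fzd7, of the same subfamily as Fzd1, were called neither with nor without the block. Fzd2 read 10.81, 10.58 and 10.58 in tooth germ, against 10.69, 10.53 and 10.61 in oral tissue (difference 0.050, 95% interval -0.15 to 0.25, adjusted p = 0.847). Fzd7 read 10.07, 10.17 and 10.16 in tooth germ, against 10.16, 10.02 and 10.38 in oral tissue (difference -0.054, 95% interval -0.27 to 0.16, adjusted p = 0.848). In both genes the libraries of the tissues overlapped.

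Fzd5 and Fzd8 form another subfamily. Fzd5 read 9.34, 8.94 and 9.32 in tooth germ, against 9.08, 9.41 and 8.80 in oral tissue, and its difference of 0.10 (SE 0.15, adjusted p = 0.807) had the opposite sign in litter 2. Fzd8 read 7.57, 7.50 and 7.57 in tooth germ, against 7.82, 7.79 and 7.65 in oral tissue. Every tooth germ library of Fzd8 was below every oral tissue library, and the difference of -0.20 (SE 0.066) was not called (adjusted p = 0.114, and 0.0738 with the block).

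Fzd3 and Fzd6 are the frizzleds of planar cell polarity. Fzd6 averaged 8.49 ± 0.15 in tooth germ and 8.28 ± 0.043 in oral tissue (SD, n = 3 each), without overlap, and its difference of 0.21 was not called (adjusted p = 0.220). Fzd3 averaged 7.86 ± 0.019 in tooth germ and 7.85 ± 0.086 in oral tissue. Fzd10 read 9.02, 8.89 and 9.11 in tooth germ, against 9.30, 8.97 and 8.67 in oral tissue (difference 0.027, adjusted p = 0.951), and its litters disagreed in sign.

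The last 2 frizzleds had low signals. Fzd9 averaged 6.99 ± 0.049 in tooth germ and 7.11 ± 0.047 in oral tissue, with a difference of -0.12 (adjusted p = 0.116). Fzd4, which also binds the unrelated ligand Norrin in vessels, differed by -0.074 at its brighter probe and was not called (adjusted p = 0.484). Its dimmer probe was called in the fit over all named probes, at -0.16 (adjusted p = 0.0329), with means of 6.98 in tooth germ and 7.15 in oral tissue.

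Lrp5 and Lrp6, the co-receptors of the beta-catenin branch, were not called. Lrp5 read 7.54, 7.45 and 7.40 in tooth germ, against 7.60, 7.50 and 7.54 in oral tissue, a difference of -0.083 (95% interval -0.22 to 0.050, adjusted p = 0.553). Lrp6 read 8.18, 8.57 and 8.39 in tooth germ, against 8.24, 8.52 and 8.78 in oral tissue, a difference of -0.14 (95% interval -0.43 to 0.15, adjusted p = 0.675). The tissues overlapped in both genes, and the interval of Lrp6 is wide because its libraries spread from 8.18 to 8.57 in tooth germ and from 8.24 to 8.78 in oral tissue.

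Of the kinase-type receptors 0 of 4 were called by limma, and 1 had an unadjusted p under 0.05. Ryk, a Wnt receptor with an inactive kinase domain, read 11.82, 11.78 and 11.80 in tooth germ, against 11.69, 11.56 and 11.49 in oral tissue. The tissues did not overlap, and the difference was 0.22 (SE 0.075, adjusted p = 0.126, and 0.0633 with the block). The second Ryk probe differed by 0.093. Ror2, a receptor of Wnt5a, read 9.39, 9.25 and 9.33 in tooth germ, against 9.33, 9.31 and 9.25 in oral tissue, a difference of 0.027 (95% interval -0.14 to 0.19, adjusted p = 0.908). Ptk7, a pseudokinase of planar cell polarity, read 8.92, 8.93 and 8.79 in tooth germ, against 9.06, 8.96 and 9.00 in oral tissue, a difference of -0.12 (SE 0.077, adjusted p = 0.463). Ror1 averaged 7.23 ± 0.038 in tooth germ and 7.24 ± 0.089 in oral tissue.

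**Figure D3:**
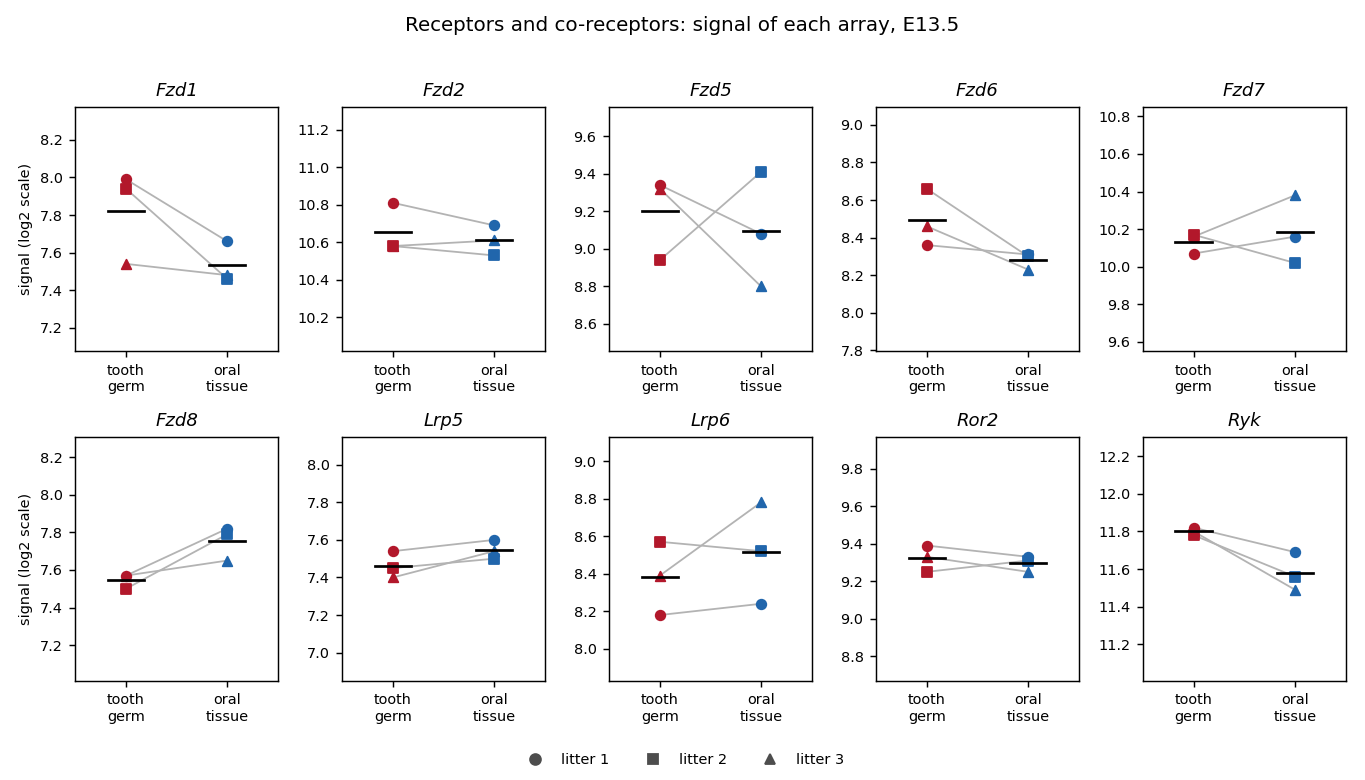
Signal on the deposited log2 scale (vertical axis, each panel spanning the same range of 1.3 units) of 10 receptors and co-receptors in each array, tooth germ left in red and oral tissue right in blue. Symbols mark the litter, lines join libraries of 1 litter and black bars are means of 3. The tissues separate in Fzd6, Fzd8 and Ryk and overlap in the other panels.

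The other genes of the pathway were taken as 7 lists. In Wnt secretion 0 of 5 genes were called, with 0 at an unadjusted p under 0.05 (limma). Wls, the carrier that takes Wnts to the surface, had the smallest p, averaging 10.77 ± 0.024 in tooth germ and 10.59 ± 0.15 in oral tissue (difference 0.18, adjusted p = 0.327). In the list of the beta-catenin destruction complex and Dishevelled 0 of 11 were called, again with 0 at an unadjusted p under 0.05, and Dvl3, a Dishevelled adaptor, had the smallest p (difference 0.061, adjusted p = 0.353). The median differences of these lists were -0.00067 and 0.027.

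In the other 5 lists calls were made in one or both directions, beside 5.81% of all genes called. Among secreted inhibitors 1 of 15 rose, Sostdc1 (0.94, adjusted p = 8.2e-05), and in the blocked fit Wif1 (0.46, adjusted p = 0.00953) and Dkk4 (0.23, adjusted p = 0.00717) were called higher and Apcdd1 (-0.44, adjusted p = 0.00231) lower as well, giving 3 and 1. Among R-spondins, their Lgr receptors and regulators of receptor turnover, 3 of 12 rose and 1 fell. The block added Kremen2, a Dickkopf receptor, among those lower (-0.32, adjusted p = 0.0250). Those called without it were Rspo3, which enhances Wnt signals (9.64 ± 0.12 in tooth germ and 8.90 ± 0.094 in oral tissue, difference 0.73, adjusted p = 3.5e-04), Lrp4, which binds Sostdc1 (0.47, adjusted p = 0.00552), and Lgr6, an R-spondin receptor (0.20, adjusted p = 0.0395), while Rspo2 fell by 0.36 (adjusted p = 0.0327). In this list 10 of 12 genes did not overlap between the tissues, beside 23.1% of all genes.

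Among the nuclear factors, 1 of 11 rose and 1 fell, and the block added the corepressor Tle4 among those higher (0.28, adjusted p = 0.0275). Tcf7l2, a TCF factor that is also made by muscle connective tissue, averaged 9.91 ± 0.19 in tooth germ and 10.62 ± 0.11 in oral tissue (difference -0.71, adjusted p = 0.00143), and Lef1 rose by 0.39 (adjusted p = 0.0483). Of 10 Wnt target genes 2 rose and 1 fell: Sp5 (1.95, adjusted p = 1.8e-05), Tnfrsf19 (0.49, adjusted p = 0.0255) and the cyclin gene Ccnd1 (-0.38, adjusted p = 0.00662). The other 7 were not called, among them Axin2 (0.21, adjusted p = 0.222, and 0.0998 with the block), Nkd1 (0.053) and Nkd2 (-0.026). In planar cell polarity 1 of 9 rose and 1 fell, Ankrd6, the mouse Diversin gene (0.59, adjusted p = 4.5e-04), and Daam1, a formin downstream of Dishevelled (-0.49, adjusted p = 0.0142). The medians of the last 5 lists were 0.021, 0.093, 0.096, 0.069 and -0.041, in the order given.

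**Figure D4:**
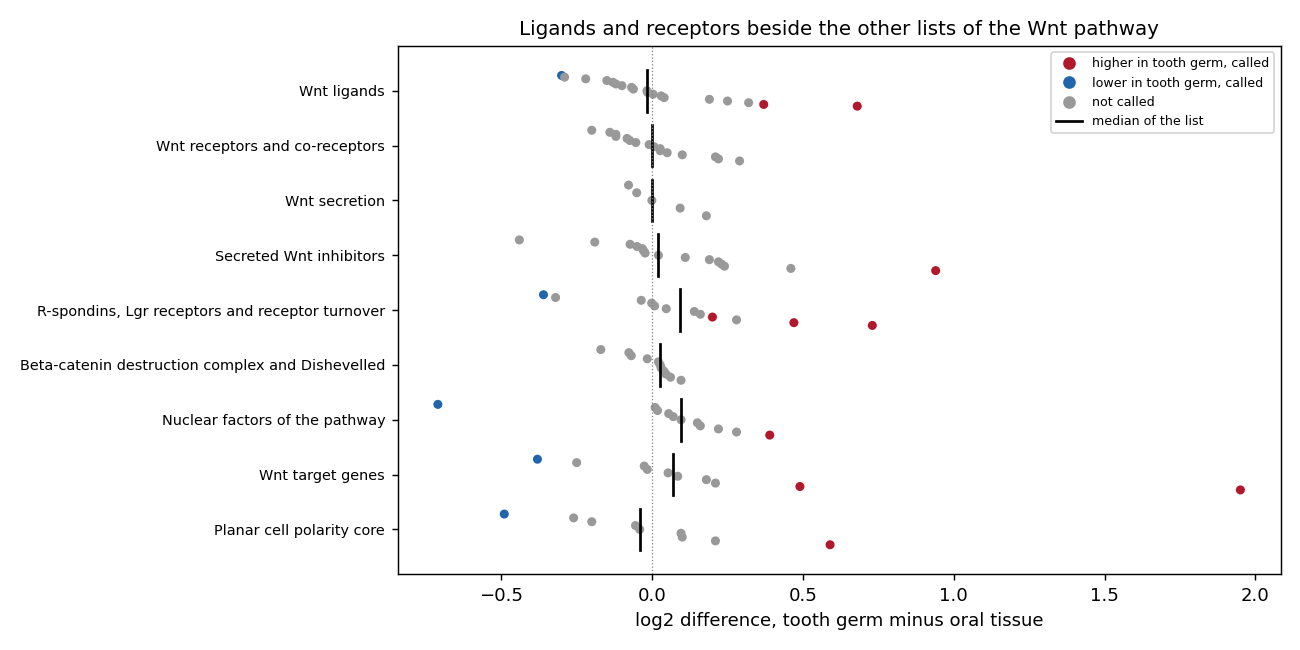
Log2 difference, tooth germ minus oral tissue, of each gene (points) in the ligands, the receptors and co-receptors, and 7 further lists of the Wnt pathway (rows), with the median of each list as a black bar. Red points were called higher and blue points lower in tooth germ at an adjusted p under 0.05. Sp5 at 1.95 is the point farthest to the right and Tcf7l2 at -0.71 the one farthest to the left.

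Markers of several cell types differed between the tissues as well. Over all genes 2.39% were called higher and 3.42% lower in tooth germ, and 3.86% and 5.02% with the block. Of 13 surface epithelium markers 9 rose and 1 fell in tooth germ, and their summed linear signal was 42500 to 46000 in tooth germ and 24400 to 28200 in oral tissue. Of 11 dental epithelium markers 6 rose and 1 fell (7 and 1 with the block, sums of 5410 to 6300 in tooth germ and 3000 to 3300 in oral tissue), and of 11 dental mesenchyme markers 5 rose (7 with the block, sums of 16900 to 19200 in tooth germ and 8550 to 11600 in oral tissue). Of 17 skeletal muscle markers 14 fell, with sums of 13900 to 17800 in tooth germ and 42300 to 68700 in oral tissue. Such sums weigh bright genes most, among them Krt17 (means of 13.81 in tooth germ and 11.77 in oral tissue). Tfap2b (11.54 and 9.72) is the brightest gene of the dental epithelium list and weighs most in its sums. Which cells made Tfap2b was not tested, so the sums of that list are no measure of epithelium alone. The median log2 differences of the 4 lists were 0.45, 0.20, 0.35 and -1.69, in the order given. Of these 4 lists, 2 genes each averaged under the median of all signals, and the array lists none at 0.

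Markers of further cell types were called lower or not called in tooth germ. The share called lower was 3.42% over all genes, and 5.02% with the block. Without the block the Schwann cell and endothelium lists rest on 1 called gene each, Sox10 (-1.19) and Tek (-0.33). They therefore say little about these cells. Of 10 neuron markers 3 fell (6 with the block; sums of 1650 to 1820 in tooth germ and 2560 to 4450 in oral tissue), of 5 Schwann cell and glia markers 1 (727 to 755 in tooth germ and 917 to 1310 in oral tissue, with 4 of the 5 below the median of all signals), and of 9 endothelial markers 1 (2 with the block; 5210 to 5430 in tooth germ and 5830 to 6570 in oral tissue). Of 8 macrophage and leukocyte markers 6 fell (2700 to 2980 in tooth germ and 3690 to 4250 in oral tissue), and of 9 tendon and connective tissue markers 5 (6 with the block; 15900 to 18200 in tooth germ and 22300 to 23600 in oral tissue). The last 5 include Tcf4, a bHLH factor gene that is no marker of these cells. Tcf4 is also part of the sums of that list, with means of 12.28 in tooth germ and 12.77 in oral tissue. Of 9 cartilage and bone markers 0 were called by limma (7620 to 15400 in tooth germ and 8670 to 18200 in oral tissue). An unadjusted p under 0.05 was found for 2 of them, beside 17.1% of all genes. Ibsp of this list read 12.70, 10.88 and 12.96 in tooth germ, against 12.13, 13.35 and 11.62 in oral tissue. It was thus bright in both tissues, although oral tissue is described as free of bone. For Ibsp, Sp7 and Alpl, library 2 was the lowest of tooth germ and the highest of oral tissue. How much bone each library held was not tested. Of 7 erythroid markers 0 were called, with 0 under 0.05 (63600 to 74900 in tooth germ and 64900 to 71500 in oral tissue). In bulk tissue, fewer cells of a type and less RNA per cell cannot be told apart, and the part of these cell types in the differences of Wnt3a, Wnt10b and Wnt9b was not tested.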

How the data were processed

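Gene expression was measured on 6 bead arrays, 3 of tooth germ and 3 of oral tissue. The values are log2-scale signals per probe, normalized and deposited by the authors. They used lumi 2.8.0, per the submitters' processing notes. Its transformation and background correction are not given in the sources used here, so the scale may be plain log2 or a variance-stabilised form close to it. The sorted columns differed by at most 0.000827, so the table was already quantile normalized. Precision is limited by how few arrays there are.

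Of 45281 probes 34885 had 1 symbol in the platform annotation, and the brightest per gene was kept (19057 genes; 18 of the 35 members had several probes). Tooth germ was compared with oral tissue in limma 3.58.1 under R 4.3.3 (lmFit, eBayes with a mean-variance trend), with Benjamini-Hochberg adjustment over all genes. The test was checked on simulated data with 50 changed genes at each of several sizes. These 200 genes, of 19057, were drawn from those above the median gene, so their recovery does not carry over to dimmer members. The test recovered 5 of 50 at a log2 difference of 0.3, 27 at 0.5, 48 at 1 and 50 at 2, with 9 false calls. Small differences were thus often missed among these brighter genes, and a gene that was not called may still differ. Errors of differences are moderated standard errors. Summed marker signals add 2 to the power of each value, so the brightest genes weigh most.

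Litter pairs the libraries per the labels. Deviations from the group means correlated at 0.413, 0.233 and 0.266 in the 3 same-numbered pairs and between -0.267 and -0.072 in the others. The deviations of a gene sum to 0 within each tissue, so positive values in the same-numbered pairs bring negative ones in the others. The negative values are therefore no separate support for the pairing. The main fit has no block. Blocked values are given where they change a call of a member or of a pathway gene, and as counts for marker lists.

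The members, the lists and the rule for naming genes were chosen with earlier results of these data known. The rule named called members, Wnt10a, Wnt10b, Wnt5a, Lrp5, Lrp6, the 10 members with the brightest probes, and up to 3 called genes of each pathway list (the smallest p where none was called). Lgr6, the smallest of the called differences in its list, and the pathway genes that the block added were named after their values were seen. So were Axin2, Nkd1 and Nkd2, and Fgf9, Sox10, Tek, Ibsp, Sp7 and Alpl of the marker lists. Of the lists, 12 genes had no probe with 1 symbol and were not analysed here. Alternatives were litter as a block or random effect, repeated normalization, median centring, removal of dim genes, the mean of all probes, eBayes without a trend or with robust shrinkage, a stricter threshold, and leaving out libraries or litters.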

Additional observations from a re-analysis of the deposited data

How the results depend on the processing

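The count of ligands and receptors called higher in tooth germ was 2 and the count called lower was 1. With the replicate block (litter as a block) these became 4 and 2, and the count over all genes became 1693, against 1107 without the block. Besides Wnt2, Wnt3 and Fzd1, the block changed no other call among the 35 genes. Litter as a random effect called 2 lower, adding Wnt3 (adjusted p = 0.0427). With dim genes removed 0 were called lower, because Wnt9b was itself removed. At an adjusted p under 0.01 all genes gave 601 calls, with the same 3 members. Leaving out 1 library or 1 litter gave between 549 and 1025 calls over all genes, 1 to 3 members higher and 0 to 3 lower. Without tooth germ library 2 alone, 734 genes were called. Without both libraries of litter 1, the member called was Wnt3a alone. No called member changed sign in any of the 18 alternatives. Each was run on every member except the removal of dim genes, which left out those below the median gene. The planned added offset was not run, since it applies to linear values and these are logarithms. Median centring shifted the median of all genes by 0.002. Differences of dim genes may be understated, and no background level was available.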
